A study of Rattus with 9 samples.

Results

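The genes described here carry out the oxidation of fatty acids and the making of ketone bodies in the liver, together with targets of the nuclear receptor PPAR-alpha. The set was a list of 30 gene symbols. A row belonged to it where its gene name in the deposited table was on that list. The list was drawn up with earlier results of these data known. The table held 29 such rows of 20236 genes, for 28 of the 30 symbols. No row was named Acaa1a or Cyp4a3, and 2 rows were named Cyp4a2. The row of gene ID ENSRNOG00000030154 (chromosome 5, 134196912 to 134207863, minus strand, build Rnor_6.0) was described in the table as Cyp4a2. That of ENSRNOG00000009741 (chromosome 5, 134469270 to 134484839, minus strand) carried the gene name Cyp4a2 beside a nucleotide match to Cyp4a3, so each is given with its ID. The row named Acaa1b (chromosome 8, 128027958 to 128036236, plus strand) was described as 3-ketoacyl-CoA thiolase A of the peroxisome and was the one peroxisomal thiolase row, so that reads of its near copy cannot be set apart.

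PPAR-alpha is a ligand-activated transcription factor that binds DNA as a pair with a retinoid X receptor and, in the rodent liver, turns on the genes of fatty acid oxidation during fasting and in response to fibrate drugs. Long-chain fatty acids cross into mitochondria as carnitine esters and are shortened there in a cycle of dehydrogenation, hydration, a further oxidation and thiolytic cleavage. Very long chains are shortened first in peroxisomes, a side route starts with hydroxylation of the far end of the chain, and the acetyl-CoA made in liver mitochondria can leave the organ as ketone bodies.

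Liver messenger RNA of the outbred rat strain Sprague-Dawley was sequenced in 9 libraries. The pomegranate-high, model and normal control groups had 3 libraries each, taken after 8 weeks of administration. The series concerns pomegranate as a treatment of hyperlipidemia, a raised level of blood lipids. The labels give neither how the model was made nor whether the pomegranate-high rats carried it, nor the preparation and dose of pomegranate, the age and sex of the rats, or whether each library came from a separate animal. The p-values therefore measure the spread between these libraries, which may be technical. Values are FPKM, fragments scaled to gene length and to the total of the library, so levels of different genes can be set side by side.

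Depth lay between 13678658 and 17966670 reads per library, and a count of 0 allowed up to 3 reads, or 0.167 to 0.219 FPKM where the gene is 1 kb long. The tissue label was checked against 10 hepatocyte markers, of which 0 were under 1 FPKM in all libraries, and Alb, the serum albumin gene, took 4.85% to 7.69% of reads in the pomegranate-high libraries, 6.65% to 10.05% in the model libraries and 8.13% to 9.43% in the normal control libraries. Of the 5 fat cell markers in the table, Plin1, Lep and Retn stayed under 0.1 FPKM, whereas Cidea and Cfd reached 34.4 and 60.4 FPKM, with sums over the list of 28.4 to 73.7 FPKM in the pomegranate-high libraries, 8.13 to 37.3 FPKM in the model libraries and 14.2 to 43.4 FPKM in the normal control libraries. Of the 4 muscle markers, Ckm was at 0 in every library, Acta1 stayed under 0.1 FPKM and Mb reached 0.130 FPKM, while Tnnt3 lay between 1.14 and 2.15 FPKM in the pomegranate-high libraries, 0.261 and 0.836 FPKM in the model libraries and 0.386 and 0.645 FPKM in the normal control libraries, without overlap between the first group and the others. Mitochondrially encoded genes took 9.62%, 11.4% and 4.22% of reads in the pomegranate-high libraries, 14.5%, 6.40% and 4.99% in the model libraries and 6.38%, 4.18% and 4.17% in the normal control libraries. Pomegranate-high replicates 1 and 2 and model replicate 1 thus stood above the other 6 libraries. In bulk tissue, fewer cells of a type and less RNA per cell cannot be told apart. A comparison was fitted with limma on log2(FPKM + 1), a scale on which low genes show too small a fold change, over the 11078 genes with at least 1 FPKM in at least 3 libraries. Of the 29 rows, 28 passed that filter, with 40 to 53271 reads per library. Acot1, a cytosolic acyl-CoA thioesterase, did not pass, with 11, 12 and 45 reads in the pomegranate-high libraries, 0, 19 and 1 in the model libraries and 34, 11 and 2 in the normal control libraries.

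No member passed an adjusted p of 0.05 in any of the 3 comparisons (limma, Benjamini-Hochberg over all tested genes), where 0.00903% of all tested genes did between model and normal control, 0.00903% between pomegranate-high and model and 0.0181% between pomegranate-high and normal control. The directions given here are therefore those of measured levels, not calls. Relative to the mean of the normal control libraries, on the log2(FPKM + 1) scale, the median of the 28 tested members was -0.14, -0.60 and 0.37 in the pomegranate-high libraries, -0.74, -0.07 and -0.41 in the model libraries and 0.02, 0.19 and -0.22 in the normal control libraries. All 3 model libraries thus stood below 0, whereas the pomegranate-high libraries fell on both sides of it. Over all tested genes the same median ran from -0.01 to 0.15 in the pomegranate-high libraries, from -0.18 to 0.08 in the model libraries and from -0.01 to 0.01 in the normal control libraries. Reads on the members made up 1.19%, 0.843% and 1.75% of the pomegranate-high libraries, 0.725%, 1.22% and 0.963% of the model libraries and 1.31%, 1.53% and 1.19% of the normal control libraries.

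**Figure D1:**
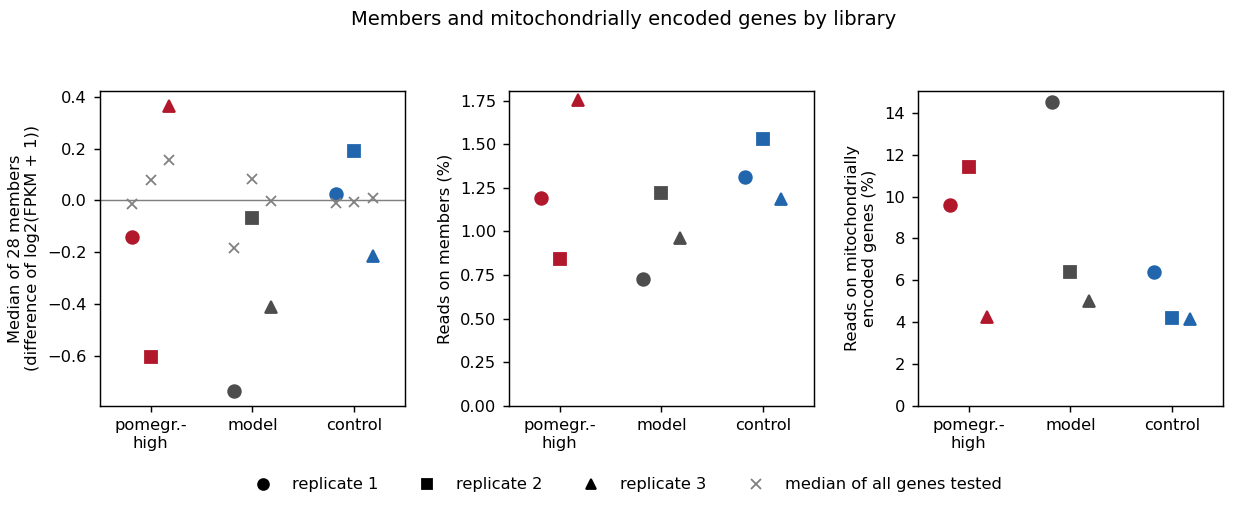
Each point is 1 library, with the pomegranate-high, model and normal control groups from left to right and the replicate given by its shape. The left panel plots the median of the 28 tested members (coloured) and of all tested genes (grey crosses) as the difference of log2(FPKM + 1) from the normal control mean, the middle panel the percentage of reads on the members, and the right panel the percentage on mitochondrially encoded genes. Model replicate 1 has the lowest member median, -0.74, and the highest mitochondrial share, 14.5%, while pomegranate-high replicate 3 has the highest member median, 0.37, at a mitochondrial share of 4.22%.

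The pomegranate-high group was split between its libraries. Pomegranate-high replicate 3 held the highest level of its group for 25 of the 28 members, against 42.3% of all tested genes, and stood above the normal control mean for 26. Replicate 2 of that group held the lowest level for 23 members, against 27.0% of all tested genes, and stood below the normal control mean for 24. The model group was spread as well, with replicate 1 lowest in 20 members (54.7% of all tested genes) and replicate 2 highest in 22 (42.3%). The median SD of a member between replicates, on the log2 scale, was 0.58 in the pomegranate-high libraries, 0.38 in the model libraries and 0.31 in the normal control libraries, and over all tested genes it was 0.34, 0.33 and 0.23 in the same order of groups. In the pomegranate-high and in the model group, the library with the lowest member median was the one with the highest mitochondrial share, and in the normal control group it was the one with the lowest. The part of that share in the results was not tested beyond fits whose values are given with the comparisons. These left out the 3 libraries of highest mitochondrial share or took that share as a covariate.

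**Figure D2:**
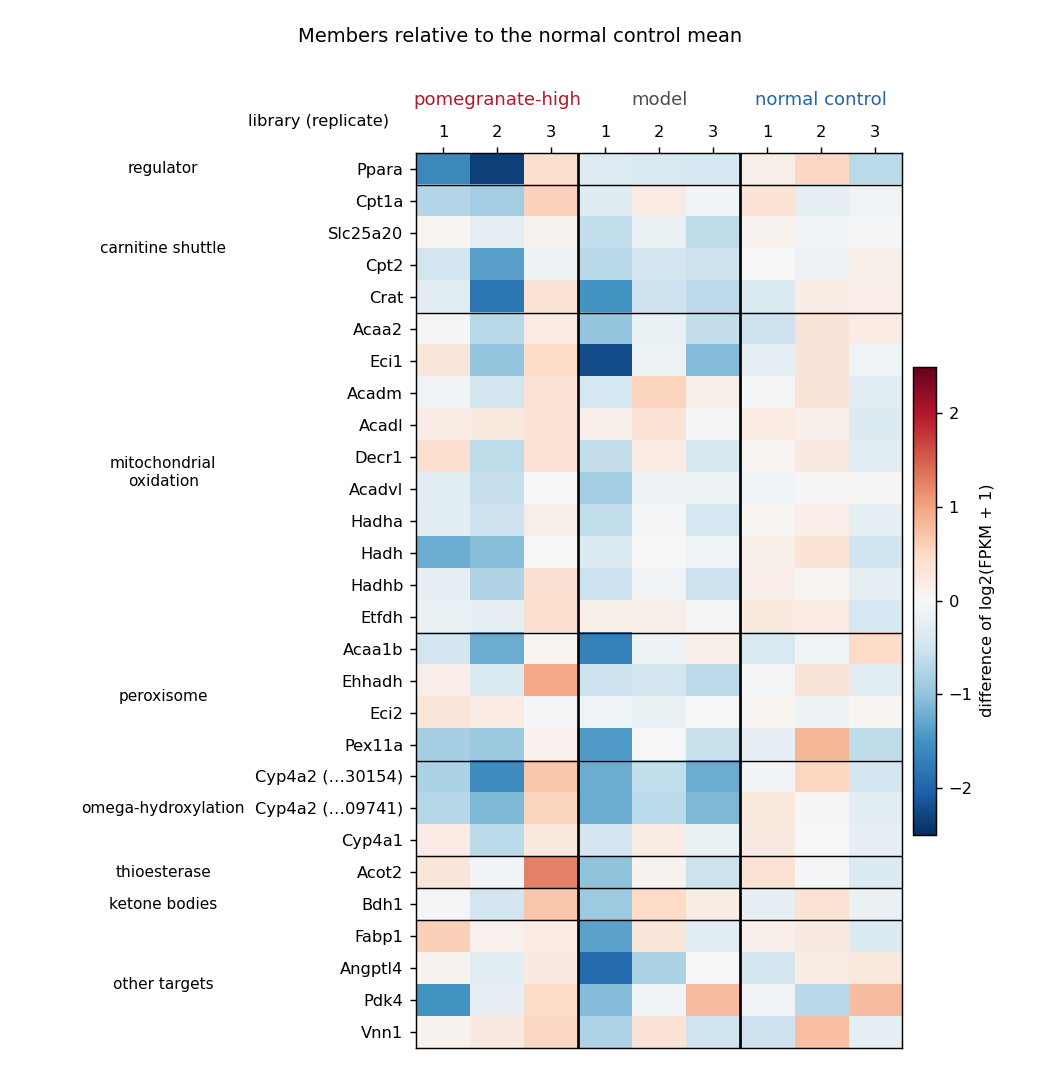
Rows are the 28 tested members by role and columns the 9 libraries, with the pomegranate-high, model and normal control groups from left to right. Colour gives the difference of log2(FPKM + 1) from the normal control mean, red for higher and blue for lower. Model replicate 1 and pomegranate-high replicate 2 are blue in most rows, and pomegranate-high replicate 3 is red in most.

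Ppara, the gene of the receptor itself (chromosome 7, 126619196 to 126681752, plus strand), was the lowest of the tested members, with 2.84, 1.33 and 14.4 FPKM in the pomegranate-high libraries, 8.31, 7.95 and 7.65 FPKM in the model libraries and 12.03, 15.9 and 6.33 FPKM in the normal control libraries. Pomegranate-high replicates 1 and 2 were the lowest of the 9 libraries and replicate 3 was above 2 of the 3 control libraries, so that the groups overlapped. The 3 model libraries lay within a 1.09-fold range, against a 10.8-fold range in the pomegranate-high libraries and a 2.51-fold range in the normal control libraries. The means were 6.18 ± 7.13 FPKM in the pomegranate-high libraries, 7.97 ± 0.3295 FPKM in the model libraries and 11.4 ± 4.796 FPKM in the normal control libraries (SD, n = 3 each). Without pomegranate-high replicate 3, the log2 difference from the normal control libraries was -1.97 ± 0.36 (SE) with an adjusted p of 0.0336 (limma). With all 9 libraries it was -1.18 ± 0.58 with an adjusted p of 0.523. The value without replicate 3 was the single call among the members in any fit, it rested on leaving out 1 library, and the adjusted p was at least 0.154 in the other alternatives. The direction turned as well, to 0.39, without the 3 libraries of highest mitochondrial share, which left replicate 3 as the one pomegranate-high library. The difference is given for that call, after the values were seen.

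The carnitine shuttle moves long-chain acyl groups into the mitochondrial matrix, and Crat, a carnitine enzyme of short acyl groups, was grouped with its genes. All 4 members of this group were lower in the model libraries than in the normal control libraries on average. Of these, 3 were lower without overlap, Crat among them, where 4.82% of all tested genes were. Slc25a20, the carnitine-acylcarnitine carrier of the inner membrane, had 101, 83.1 and 104 FPKM in the pomegranate-high libraries, 63.5, 86.4 and 62.8 FPKM in the model libraries and 105, 93.6 and 95.1 FPKM in the normal control libraries. Every model value was below every control value, and the pomegranate-high libraries were spread across both. The log2 difference between model and normal control libraries was -0.47 ± 0.22 (SE), with an adjusted p of 0.999 (limma).

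Cpt2, which turns the carnitine esters back into acyl-CoA inside the matrix, had 53.9, 28.6 and 68.5 FPKM in the pomegranate-high libraries, 45.7, 54.6 and 51.2 FPKM in the model libraries and 75.1, 67.1 and 83.3 FPKM in the normal control libraries. The model libraries again lay wholly below the control libraries, with a log2 difference of -0.56 ± 0.30 (limma, adjusted p = 0.999). Crat, the carnitine acetyltransferase for short acyl groups, had 45.7, 15.1 and 71.6 FPKM in the pomegranate-high libraries, 19.04, 37.99 and 34.7 FPKM in the model libraries and 42.9, 63.00 and 62.1 FPKM in the normal control libraries. Its model libraries were also below every control library, with a log2 difference of -0.89 ± 0.49 (limma, adjusted p = 0.999), and pomegranate-high replicate 2 was the lowest of all 9.

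Cpt1a, the outer-membrane enzyme that starts the shuttle and is its regulated step, had a different order. It had 68.6, 62.7 and 172 FPKM in the pomegranate-high libraries, 93.4, 133 and 109 FPKM in the model libraries and 145, 96.1 and 108 FPKM in the normal control libraries. The model and control libraries overlapped, and pomegranate-high replicates 1 and 2 were the lowest and replicate 3 the highest of the 9. Within a library, the ratio of Cpt1a to Cpt2 FPKM ran from 1.27 to 2.51. It was 1.27, 2.19 and 2.51 in the pomegranate-high libraries, 2.04, 2.44 and 2.12 in the model libraries and 1.93, 1.43 and 1.30 in the normal control libraries, with every model value above every control value. That ratio was looked at after the values of both genes had been seen and was not tested.

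Of the 10 members of the mitochondrial cycle, 7 had a lower and 3 a higher mean log2 level in the model than in the normal control libraries. Acadvl, the very-long-chain acyl-CoA dehydrogenase of the first step, had 157, 128 and 194 FPKM in the pomegranate-high libraries, 105, 176 and 176 FPKM in the model libraries and 183, 197 and 197 FPKM in the normal control libraries. It was the one member of this role whose model libraries lay below all control libraries, with a log2 difference of -0.37 ± 0.27 (limma, adjusted p = 0.999), and the control libraries lay within a 1.07-fold range.

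Acaa2, the mitochondrial thiolase of the last step, was the most abundant gene of the cycle, with 704, 451 and 835 FPKM in the pomegranate-high libraries, 373, 650.2 and 481 FPKM in the model libraries and 510.3, 907 and 834 FPKM in the normal control libraries. The groups overlapped in all 3 comparisons. Eci1, an isomerase that lets unsaturated fatty acids enter the cycle, had 651, 268 and 736 FPKM in the pomegranate-high libraries, 113, 483 and 248 FPKM in the model libraries and 455, 665 and 493 FPKM in the normal control libraries. Its range of 6.52-fold over the 9 libraries was the second widest of the tested members after the 11.9-fold range of Ppara, and model replicate 1 was the lowest. Its means were 551 ± 249 FPKM in the pomegranate-high libraries, 281 ± 187 FPKM in the model libraries and 538 ± 112 FPKM in the normal control libraries (SD, n = 3 each), and the 3 groups overlapped.

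The other 7 genes of the cycle ran from 62.9 to 471 FPKM and their groups overlapped in all 3 comparisons. Acadm and Acadl, the dehydrogenases of medium and long chains, and Etfdh, which passes their electrons to the respiratory chain, were the 3 with a higher mean in the model libraries than in the normal control libraries. Acadl had means of 283 ± 15.98 FPKM in the pomegranate-high libraries, 265 ± 34.8 FPKM in the model libraries and 241 ± 47.4 FPKM in the normal control libraries (SD, n = 3 each), a 1.62-fold range over the 9 libraries. Hadh, the dehydrogenase of short 3-hydroxyacyl chains, was lowest in pomegranate-high replicates 1 and 2. Hadha and Hadhb encode the 2 subunits of the trifunctional protein, which handles long chains, and lie 6661 bases apart on opposite strands of chromosome 6. Their ratio stayed between 1.08 and 1.49 in all 9 libraries, whereas that of the isomerases Eci1 and Eci2 ran from 0.721 to 4.45.

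In the peroxisome, Ehhadh, the bifunctional enzyme that hydrates and then oxidizes the chain and a known target of PPAR-alpha in rodents, was the member whose model libraries stood apart in both comparisons that involved them, where 4.82% of all tested genes were lower in the model than in the normal control libraries without overlap and 8.78% higher in the pomegranate-high than in the model libraries. It had 223, 158 and 393 FPKM in the pomegranate-high libraries, 138, 144 and 126 FPKM in the model libraries and 192, 250.1 and 165 FPKM in the normal control libraries. The model libraries were the lowest 3 of the 9. The log2 difference between model and normal control libraries was -0.55 ± 0.33 (limma, adjusted p = 0.999), and that between pomegranate-high and model libraries was 0.82 ± 0.33 (limma, adjusted p = 0.53). Both comparisons use the same 3 model libraries, so they are not independent. The pomegranate-high and normal control libraries overlapped.

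Acaa1b, the row of the peroxisomal thiolase, had 308, 180.2 and 439 FPKM in the pomegranate-high libraries, 132, 387 and 468 FPKM in the model libraries and 325, 399.6 and 589.7 FPKM in the normal control libraries, with overlap in every comparison. Eci2, an isomerase found in peroxisomes and mitochondria, had the narrowest range of the tested members, 151 to 209 FPKM or 1.38-fold. Pex11a, which takes part in peroxisome division and is induced by fibrates in rodents, ran from 13.1 to 65.8 FPKM, lowest in model replicate 1 and highest in normal control replicate 2.

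The cytochrome P450 enzymes of the 4A family hydroxylate the far end of the fatty acid chain and are classical targets of PPAR-alpha in rat liver. The row ENSRNOG00000009741 had 536, 404 and 1297 FPKM in the pomegranate-high libraries, 373, 549.5 and 405 FPKM in the model libraries and 1053, 895 and 724 FPKM in the normal control libraries. The row ENSRNOG00000030154 had 536, 314 and 1504 FPKM in the pomegranate-high libraries, 393, 609 and 391 FPKM in the model libraries and 887, 1349.8 and 675 FPKM in the normal control libraries. In both rows every model library was below every control library, and among the pomegranate-high libraries replicate 3 stood above all controls while replicates 1 and 2 stood within or below the range of the model libraries.

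The log2 difference between model and normal control libraries was -1.01 ± 0.40 for ENSRNOG00000009741 (limma, adjusted p = 0.999) and -1.03 ± 0.51 for ENSRNOG00000030154 (limma, adjusted p = 0.999). Model means were 442 and 465 FPKM, against control means of 891 and 971 FPKM, in the same order of rows. The 2 rows are close copies whose reads may be shared, and their ratio stayed between 0.663 and 1.29, so they are uncertain as separate measurements. Cyp4a1, another fatty acid hydroxylase, lies 7916 bases from ENSRNOG00000009741. It ran from 161 to 306 FPKM with overlap in all comparisons, and its means were 256 ± 81.8 FPKM in the pomegranate-high libraries, 235 ± 53.95 FPKM in the model libraries and 261 ± 38.4 FPKM in the normal control libraries (SD, n = 3 each).

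Acot2, the mitochondrial acyl-CoA thioesterase, had 21.5, 16.4 and 42.7 FPKM in the pomegranate-high libraries, 8.16, 18.5 and 11.5 FPKM in the model libraries and 22.4, 17.03 and 13.5 FPKM in the normal control libraries. The pomegranate-high libraries had a mean of 26.9 ± 13.98 FPKM, against 12.7 ± 5.26 FPKM in the model libraries (SD, n = 3 each), and the groups overlapped at model replicate 2. The log2 difference was 0.98 ± 0.38 (limma, adjusted p = 0.525). Acot2 and Acot1 are close copies that lie 17761 bases apart, so some of their reads may be shared.

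Bdh1, which interconverts the ketone bodies acetoacetate and 3-hydroxybutyrate, was the only member of the ketone body pathway. It had 119, 89.5 and 199 FPKM in the pomegranate-high libraries, 65.02, 174 and 139 FPKM in the model libraries and 106, 159 and 109.9 FPKM in the normal control libraries, and the groups overlapped throughout. Fabp1, the abundant fatty acid binding protein of the hepatocyte cytosol, was the most abundant member, with 3631, 2578 and 2744 FPKM in the pomegranate-high libraries, 949, 2969 and 1955 FPKM in the model libraries and 2617, 2807 and 1860.2 FPKM in the normal control libraries. Model replicate 1 stood below all others. Angptl4, a secreted inhibitor of lipoprotein lipase, had 119, 92.8 and 131 FPKM in the pomegranate-high libraries, 28.9, 64.2 and 111 FPKM in the model libraries and 80.9, 128 and 135 FPKM in the normal control libraries. Model replicates 1 and 2 were the 2 lowest of the 9 libraries, while replicate 3 lay within the range of the controls. Pdk4, the kinase that shuts off pyruvate dehydrogenase when fat is burnt, ran from 22.8 to 114 FPKM, and Vnn1, a pantetheinase, from 6.30 to 19.9 FPKM, both with overlap in all comparisons.

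**Figure D3:**
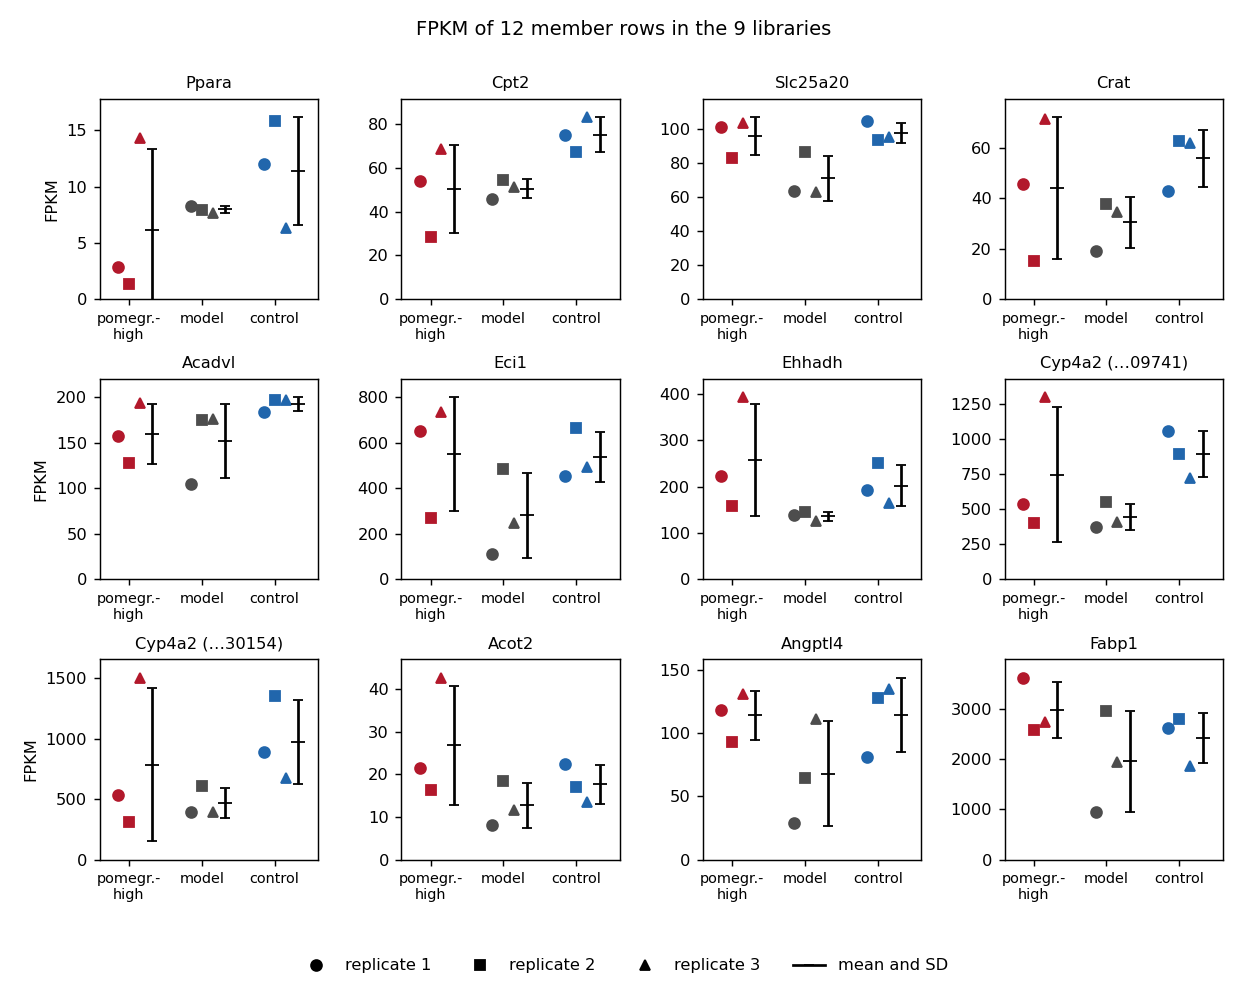
FPKM of 12 member rows is plotted on linear axes that start at 0, with the pomegranate-high, model and normal control libraries from left to right. Points are single libraries and the bars beside them the mean and SD of 3 libraries, the bar of Ppara in the pomegranate-high group being cut off at 0. Cpt2, Slc25a20, Crat, Acadvl, Ehhadh and both Cyp4a2 rows show every model library below every normal control library, and pomegranate-high replicate 3 is the highest of its group in all panels except Fabp1.

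Set against the normal control libraries, 25 of the 28 members had a lower mean log2 level in the model libraries and 3 a higher one, where 54.1% of all tested genes were lower. The median log2 difference was -0.38 for the members and -0.03 for all tested genes. Members were called in 0 cases, against 0.00903% of all tested genes, with a smallest adjusted p of 0.999. At an unadjusted p under 0.05, 1 member was lower, the Cyp4a2 row ENSRNOG00000009741, against 1.78% of all tested genes, and 0 were higher, against 1.2%. Limma's voom on the reads recovered from the FPKM values likewise called 0 members. At that unadjusted p it had 2 lower, where 186 of the 11078 tested genes were lower. Over all alternatives 0 to 8 members were lower at that p and 0 higher. There were 8 with library quality weights, where 450 genes were lower and 7.80% of all tested genes passed in either direction. There were 5 with the 2 groups alone, where 254 genes were lower, and 5 without pomegranate-high replicate 2, where 213 were. With the mitochondrial share as a covariate, without model replicate 1 and without normal control replicate 2 there were 0 in each, where 163, 112 and 149 genes were lower. No number is given without the 3 libraries of highest mitochondrial share, a fit with 1 pomegranate-high library. Groups did not overlap for 7 members that were lower in the model libraries, where the same held for 4.82% of all tested genes, and for 0 that were higher, against 3.97%.

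Model replicate 1 weighed on this comparison. Without it the median of the members was -0.18, with 20 lower and 8 higher. Leaving out a library cannot end a separation, so the 7 members below the controls without overlap had to remain. No member was added, while the share of all tested genes went from 4.82% to 7.18%. Adjusted for the mitochondrial share, the median was -0.12, with 18 lower and 10 higher. Without the 3 libraries of highest share, among them model replicate 1, the median was -0.18. Without model replicate 2 it was -0.57, with 26 lower and 2 higher, and 13 members lay below the controls without overlap, against 12.6% of all tested genes. Without normal control replicate 3 they were 12, against 7.64%. Without normal control replicate 1 they were 10, against 11.4%. Without normal control replicate 2 or model replicate 3 they were 8 in each, against 8.27% and 9.91%.

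Between the pomegranate-high and the model libraries, 21 members had a higher mean log2 level in the pomegranate-high libraries and 7 a lower one, where 61% of all tested genes were higher. The median was 0.17 for the members and 0.09 for all tested genes. Members were called in 0 cases, against 0.00903% of all tested genes, with a smallest adjusted p of 0.525. At an unadjusted p under 0.05, 2 members were higher, Ehhadh and Acot2, against 7.12% of all tested genes, and 0 were lower, against 1.57%. The voom fit also called 0, with 2 higher at that unadjusted p, where 723 of the 11078 tested genes were higher. Other alternatives moved the number. That of the fit without the 3 libraries of highest mitochondrial share is left out here, since it held 1 pomegranate-high library. It was 5 higher with the mitochondrial share as a covariate, where 1042 genes were higher. Without model replicate 2 and without pomegranate-high replicate 2 it was also 5, where 1110 and 461 genes were higher. With TPM or without model replicate 1 it was 0, where 575 and 493 genes were higher. With library quality weights it was 0 higher and 1 lower, where 1214 genes were higher and 711 lower. Without pomegranate-high replicate 3 it was 0 higher and 3 lower, where 1099 genes were higher and 885 lower. Groups did not overlap for 1 member higher in the pomegranate-high libraries, Ehhadh, where 8.78% of all tested genes did not, and for 0 lower, against 2.05%. With all 9 libraries, the 2 members higher at that unadjusted p, 7.14% of the 28 tested, are near the share of all tested genes, and the share without overlap is below it. Leaving out pomegranate-high replicate 2 or model replicate 2 put the share of members higher without overlap above that of all tested genes. Of the 28 members, 9 were higher in the first case, against 12.98%, and 7 in the second, against 19.8%. Without model replicate 3 they were 3, near the 10.9% of all tested genes. Without pomegranate-high replicate 3, 2 members were higher, below the share of 17.97%, and 4 lower, near the share of 14.1%. Without model replicate 1 or pomegranate-high replicate 1, 1 member was higher, below the shares of 13.7% and 14.6%.

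The direction of that median turned with 1 library. Without pomegranate-high replicate 3 it was -0.06, with 12 members higher and 16 lower. Without pomegranate-high replicate 2 it was 0.39, without model replicate 1 it was 0.06 and without model replicate 2 it was 0.38. Leaving out the 3 libraries with the highest mitochondrial share gave 0.42 with all 28 members higher, but the pomegranate-high group was then 1 library, assumed to vary like the others. Scaling mattered too. Median-of-ratios scaling moved the median of all tested genes by -0.12 and brought that of the members to 0.03, with 15 higher and 13 lower. At an unadjusted p under 0.05, 789 genes were higher and 174 lower on the FPKM scale, against 532 and 432 with median-of-ratios scaling, 529 and 411 with quantile normalization and 575 and 230 after rescaling to TPM.

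Relative to the normal control libraries, 10 members had a higher and 18 a lower mean log2 level in the pomegranate-high libraries, where 42.6% of all tested genes were lower. The median was -0.13 for the members and 0.07 for all tested genes. Members were called in 0 cases, against 0.0181% of all tested genes, with a smallest adjusted p of 0.501. At an unadjusted p under 0.05, 0 members were higher, against 7.24%, and 0 lower, against 2.92%, and the voom fit called 0 and had 0 at that unadjusted p in either direction. Other alternatives gave some, apart from the fit without the 3 libraries of highest mitochondrial share. Its number is left out, since it held 1 pomegranate-high library. Lower at that p were 6 members without pomegranate-high replicate 3, where 1115 of the 11078 tested genes were lower. With library quality weights 4 members were lower, where 769 genes were. With TPM, with median-of-ratios scaling and without normal control replicate 3 the number was 2 in each, where 420, 610 and 232 genes were lower. With quantile normalization 1 member was lower, where 597 genes were. Higher were 2 members after adjustment for the mitochondrial share, where 924 genes were higher. Groups did not overlap for 0 members higher in the pomegranate-high libraries, against 12.4% of all tested genes, and for 0 lower, against 3.66%. The pomegranate-high and normal control libraries therefore overlapped for every tested member.

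Again the values turned on pomegranate-high replicate 3. Without it the median was -0.36, with 5 members higher and 23 lower, and 10 members lay below all controls, where 20.03% of all tested genes did. These were Ppara, Cpt1a, Cpt2, Acadvl, Hadh, Hadha, Acaa1b, both Cyp4a2 rows and Pex11a. Above all controls without overlap stood 1 member, Eci2, against 21.8% of all tested genes. Without any other single library of the pomegranate-high and control groups, 0 or 1 members lay apart in each direction. Over all tested genes, 15.3% to 20.6% were then higher and 5.56% to 8.52% lower without overlap. Without replicate 2 the median was 0.08, with 17 higher and 11 lower. It was 0.11 when adjusted for the mitochondrial share and 0.37 without the 3 libraries of highest share, which left 1 pomegranate-high library. At an unadjusted p under 0.05, 802 genes were higher and 323 lower on the FPKM scale, against 558 and 610 with median-of-ratios scaling, 594 and 597 with quantile normalization and 534 and 420 after rescaling to TPM, which moved the median of all tested genes by -0.11 and gave a member median of -0.26. Each pair of comparisons shares 3 libraries, so their values for a member are not independent of each other.

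**Figure D4:**
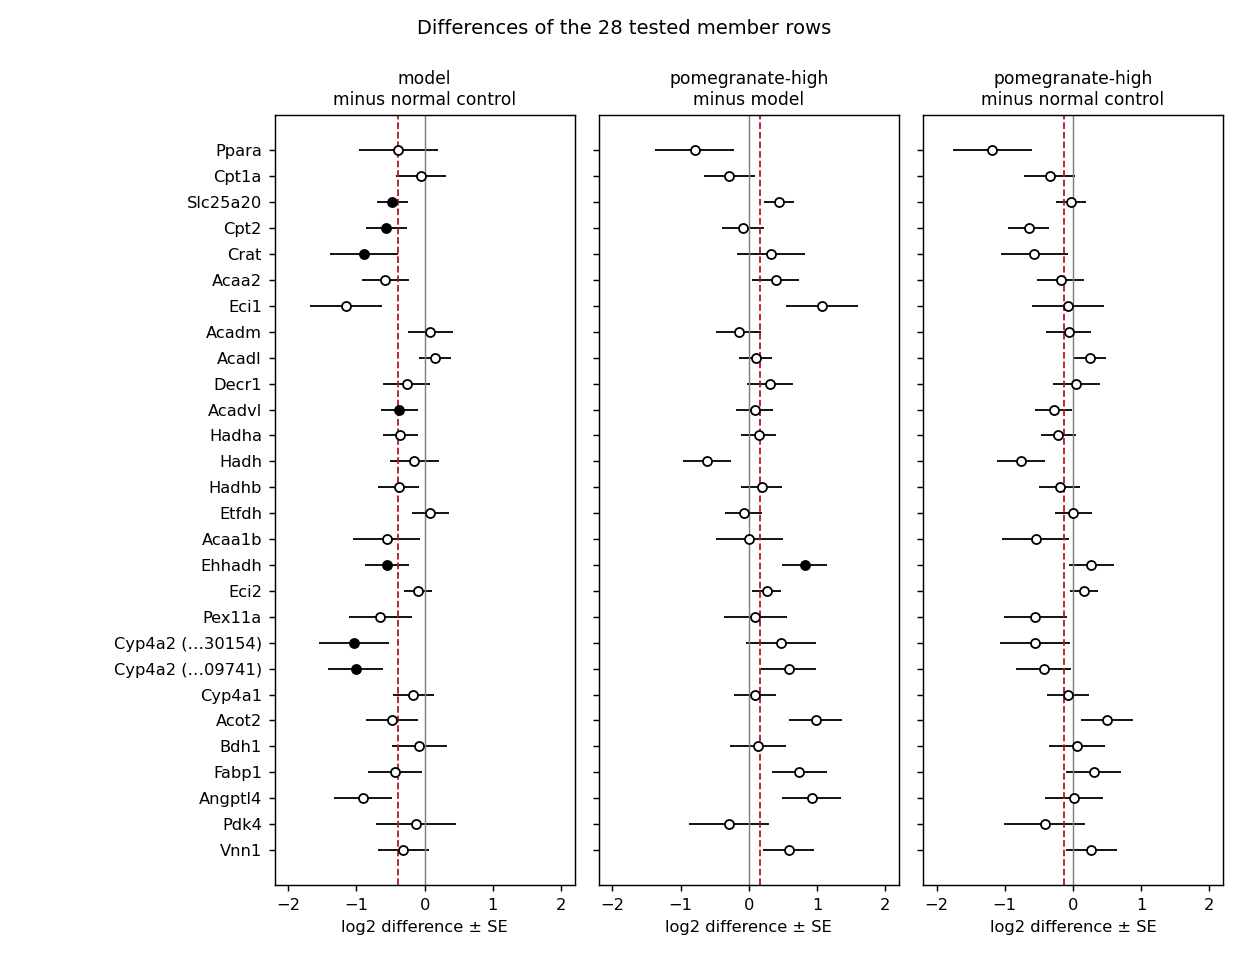
Points give the log2 difference of each of the 28 tested member rows and bars its standard error (limma on log2(FPKM + 1)), in panels for model minus normal control, pomegranate-high minus model and pomegranate-high minus normal control. Filled points mark members whose groups do not overlap, the grey line marks 0 and the dashed line the median of the members, -0.38, 0.17 and -0.13. Filled points number 7 in the first panel, 1 in the second and 0 in the third.

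Markers of hepatocytes and of other liver cells differed in level between the groups too. The summed level of the 10 hepatocyte markers was 52892 to 67395 FPKM in the pomegranate-high libraries, 67215 to 75658 FPKM in the model libraries and 70373 to 78986 FPKM in the normal control libraries. Between pomegranate-high and normal control libraries these sums did not overlap, and 4 of the 10 markers were lower without overlap, against 3.66% of all tested genes. Of the 10, 6 had a lower and 4 a higher mean log2 level. Alb was the largest part of each sum, so the gap between the sums cannot be read as one of all 10 markers. It had 23804.3, 23429.4 and 37185.5 FPKM in the pomegranate-high libraries and 41785.5, 45551.4 and 39270.8 FPKM in the normal control libraries. Of the 12 tested markers of Kupffer cells, the resident macrophages, all 12 were lower in the model than in the normal control libraries and all 12 higher in the pomegranate-high than in the model libraries. Their summed level was 507 to 1249 FPKM in the pomegranate-high libraries, 151 to 531 FPKM in the model libraries and 465 to 857 FPKM in the normal control libraries. All 9 tested endothelial markers were lower in the model libraries, with sums of 83.5 to 113 FPKM in the pomegranate-high libraries, 57.7 to 101 FPKM in the model libraries and 119 to 147 FPKM in the normal control libraries. All 6 tested genes of red blood cells were lower in the model than in the control libraries and higher in the pomegranate-high than in the model libraries, with sums of 1494 to 2924 FPKM in the pomegranate-high libraries, 475 to 1257 FPKM in the model libraries and 1261 to 1898 FPKM in the normal control libraries. Among the tested markers, 10 of 11 of stellate cells and 5 of 5 of lymphocytes were higher in the pomegranate-high than in the model libraries. The stellate sums were 61.1 to 132 FPKM in the pomegranate-high libraries, 38.6 to 67.9 FPKM in the model libraries and 40.5 to 54.3 FPKM in the normal control libraries, and the lymphocyte sums 23.5 to 41.0 FPKM, 11.5 to 21.5 FPKM and 16.4 to 25.9 FPKM in the same order of groups. The cholangiocyte sums were 6.65 to 30.4 FPKM in the pomegranate-high libraries, 6.49 to 7.99 FPKM in the model libraries and 6.24 to 8.82 FPKM in the normal control libraries, with overlap. No marker of these 7 lists was at 0 in all libraries, and 1 red blood cell gene, Hba-a3, a haemoglobin alpha chain, was higher in the pomegranate-high than in the model libraries at a limma adjusted p of 0.0386. Of the 16 mitochondrially encoded genes, 16 were higher in the model and 15 in the pomegranate-high libraries than in the normal control libraries. The part of these cells and transcripts in the members' values was not tested.

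Other genes of these pathways, on lists that leave out the members, were likewise without a call (limma, adjusted p over all tested genes). Of the 27 tested peroxisomal genes, 17 were lower and 10 higher in the model than in the normal control libraries, with 7 lower and 1 higher without overlap. Over all tested genes 54.1% were lower, with 4.82% lower and 3.97% higher without overlap, a background that holds for the further lists too. Acot4, an acyl-CoA thioesterase placed in peroxisomes in mouse, had 34.01, 13.8 and 50.4 FPKM in the pomegranate-high libraries, 8.07, 16.5 and 9.15 FPKM in the model libraries and 26.6, 20.1 and 25.8 FPKM in the normal control libraries. Its model libraries lay below all control libraries, with a log2 difference of -1.09 ± 0.43 (limma, adjusted p = 0.999). The difference between its pomegranate-high and model libraries was 1.35 ± 0.43 with overlap (limma, adjusted p = 0.478). Among the other peroxisomal genes whose model libraries all lay below the control libraries were Acot3, a thioesterase, and Decr2, a dienoyl-CoA reductase.

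Of 18 further mitochondrial genes of acyl-CoA breakdown, 15 were lower in the model than in the normal control libraries, 1 of them without overlap. That gene was Nudt7, a hydrolase of coenzyme A that is placed in peroxisomes in mouse, with 13.3, 11.99 and 12.7 FPKM in the pomegranate-high libraries, 8.27, 8.46 and 6.59 FPKM in the model libraries and 11.2, 11.4 and 8.62 FPKM in the normal control libraries. Its pomegranate-high libraries were above all others, with a log2 difference of 0.64 ± 0.20 over the model libraries (limma, adjusted p = 0.478). The list as a whole did not follow Nudt7. In the pomegranate-high libraries 8 of the 18 were higher and 10 lower than in the model libraries. Against the normal control libraries 3 were higher and 15 lower, where 42.6% of all tested genes were lower. Without overlap, 1 was higher and 4 lower in that comparison, against 12.4% and 3.66% of all tested genes. Of 6 tested genes of ketone body synthesis, use and transport, 5 were lower and 1 higher in the model than in the normal control libraries, and 5 were higher and 1 lower in the pomegranate-high than in the model libraries. Among 16 genes of fatty acid uptake and activation, 11 were lower in the model than in the normal control libraries and 7 were higher in the pomegranate-high than in the model libraries. Fabp4 and Fabp5, binding proteins of fat cells, macrophages and skin, were highest in pomegranate-high replicates 1 and 2. Fabp4 had 13.9, 31.2 and 2.302 FPKM in the pomegranate-high libraries, 4.71, 2.02 and 1.14 FPKM in the model libraries and 1.95, 1.08 and 1.34 FPKM in the normal control libraries, and Fabp5 had 45.1, 52.6 and 5.95 FPKM in the pomegranate-high libraries, 3.64, 7.52 and 6.08 FPKM in the model libraries and 6.59, 3.66 and 7.31 FPKM in the normal control libraries. The 3 tested genes that make or remove malonyl-CoA, the inhibitor of Cpt1a, were lower in 2 cases and higher in 1 in each of the 3 comparisons.

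Rxra and Lpin1, partners of PPAR-alpha, were, like Ppara, lowest in pomegranate-high replicates 1 and 2. Rxra, the retinoid X receptor with which it binds DNA, had 6.19, 11.7 and 97.5 FPKM in the pomegranate-high libraries, 43.2, 75.6 and 124 FPKM in the model libraries and 109.6, 131 and 109 FPKM in the normal control libraries. All pomegranate-high libraries were below all control libraries, with a log2 difference of -2.49 ± 0.79 (limma, adjusted p = 0.395), and replicates 1 and 2 were far below replicate 3. Lpin1, a phosphatidate phosphatase that also acts as a coactivator of PPAR-alpha in mouse liver, had 2.16, 2.598 and 10.3 FPKM in the pomegranate-high libraries, 6.65, 12.7 and 12.5 FPKM in the model libraries and 17.8, 17.7 and 17.4 FPKM in the normal control libraries. Its model and pomegranate-high libraries all lay below the control libraries, and the log2 difference between pomegranate-high and normal control libraries was -1.88 ± 0.44 (limma, adjusted p = 0.285). Of the 20 tested partners and coregulators, 13 were lower in the model than in the normal control libraries and 14 were lower in the pomegranate-high than in the model libraries, as were 14 against the normal control libraries.

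Of 25 further targets of PPAR-alpha, 17 were lower and 8 higher in the model than in the normal control libraries, and 18 were higher and 7 lower in the pomegranate-high than in the model libraries, 5 of them higher at an unadjusted p under 0.05. Over all tested genes 61% were higher between these 2 groups, and 7.12% higher at that p. Acot5, a peroxisomal thioesterase in mouse, had 19.9, 9.799 and 39.4 FPKM in the pomegranate-high libraries, 2.79, 4.49 and 3.65 FPKM in the model libraries and 19.9, 5.81 and 6.12 FPKM in the normal control libraries. The model libraries were the lowest 3 of the 9, and the log2 difference between pomegranate-high and model libraries was 2.19 ± 0.52 (limma, adjusted p = 0.478). Plin2, the coat protein of lipid droplets, had 192, 164 and 324 FPKM in the pomegranate-high libraries, 51.7, 110.4 and 140.3 FPKM in the model libraries and 109.9, 148 and 131 FPKM in the normal control libraries. Its pomegranate-high libraries were the 3 highest of the 9, with a log2 difference of 1.21 ± 0.39 over the model libraries (limma, adjusted p = 0.478). Fgf21, a fasting hormone made by the liver that is also induced by amino acid shortage, had 157, 55.4 and 148 FPKM in the pomegranate-high libraries, 1.28, 23.7 and 41.6 FPKM in the model libraries and 11.05, 23.4 and 29.1 FPKM in the normal control libraries. It too was highest in the 3 pomegranate-high libraries, with a log2 difference of 3.04 ± 0.92 over the model libraries (limma, adjusted p = 0.478).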

How the data were processed

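Liver messenger RNA, selected by its poly(A) tail per the labels' protocols, was read in 9 libraries, 3 per group. The authors deposited 1 table of FPKM values, per the file headers, with 20236 genes and 1 column per library. Per the submitters' processing notes, the build was Rnor_6.0, the aligners named were HISAT2, TopHat2 and Bowtie2 2.2.3, and HTSeq 0.6.0, DESeq and DESeq2 were named too, none with its settings. Per the labels' protocols, the second strand was made in a marking buffer. Whether reads were counted by strand, and how multi-mapped reads and low values were treated, are steps not given in the sources used here, and close copies and genes overlapping on opposite strands are therefore uncertain. Of the members, 5 overlap a gene on the opposite strand, each of which averaged at most 3.32 FPKM. The table had 0 value columns without a sample.

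Each FPKM value could be turned back into whole reads. Recovered reads came to at least 99.987% of each library total, and 100% of the 146433 values above 0 were whole within 0.001 reads. Gene lengths had been solved for whole reads, and only the sum of reads could have failed. Limits that a count of 0 allows cover counting error only.

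Members were rows whose gene name was on the given list. The members and all gene lists were chosen with earlier results of these data known. Each sample was grouped by its labelled group, and replicate numbers, given in accession order, pair no samples. The fit took genes that reached 1 FPKM in 3 or more libraries and used limma (version 3.58.1, R 4.3.3) on log2 values after adding a pseudocount of 1, with an intensity trend and the 3 groups as levels of 1 fit. Two-sided p-values were adjusted by Benjamini-Hochberg over 11078 genes and called under a threshold of 0.05. The procedure was tested on simulated data with changes larger than those of the members. That test therefore does not show whether differences like those of the members could be detected in these libraries. Log2 differences with an SE and p are given for members and list genes whose groups do not overlap or whose unadjusted p is under 0.05, with at most 6 genes per list. The values of some list genes are not reported here. FPKM per library is given for these members, for Ppara and for the 1 or 2 most abundant members of each role. Alternatives were a pseudocount of 0.1, no filter, a mean FPKM of at least 5, TPM, median-of-ratios and quantile scaling, the 2 groups alone, library quality weights, no trend, the mitochondrial read share as a covariate, voom on recovered reads, a block on title numbers, and leaving out each library or the 3 with the highest mitochondrial share. A library total without mitochondrially encoded genes was added after seeing the data. Since the authors deposited FPKM, counts were modelled in the voom alternative alone. RefSeq gene names (assembly GRCr8) were at hand for names only, and no sequence is shown.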

Additional observations from a re-analysis of the deposited data

How the results depend on the processing

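Of the 227 alternative values of the 10 differences given for members with an SE, 225 kept their direction and stayed short of the threshold. The other 2 were of Ppara between pomegranate-high and normal control libraries, which passed it at -1.97 without pomegranate-high replicate 3 and turned to 0.39 without the 3 libraries of highest mitochondrial share, against -1.18 with all libraries. Members called were 0 in all 3 comparisons under every alternative except pomegranate-high minus normal control without pomegranate-high replicate 3, so that leaving out each library gave 0 to 1. Of 67 alternative medians of the members, 66 moved by less than 0.36, the SD of library medians within groups. The exception was 0.37 for pomegranate-high minus normal control without the 3 libraries of highest mitochondrial share. With all libraries the medians were -0.38 for model minus normal control, 0.17 for pomegranate-high minus model and -0.13 for pomegranate-high minus normal control. Those with pomegranate-high libraries could thus change sign within that SD, so the count does not show that they were stable.

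Over all genes, 1 gene was called for model minus normal control, 1 for pomegranate-high minus model and 2 for pomegranate-high minus normal control. For model minus normal control the count was 0 with a pseudocount of 0.1, without a filter, with a mean FPKM of at least 5, with quantile normalization, adjusted for the mitochondrial share and with voom, 10 with quality weights, 2 without the 3 libraries of highest share and 0 to 1 when each library was left out. For pomegranate-high minus model it was 0 without a filter, with median-of-ratios, quantile or mitochondria-free scaling, with the 2 groups alone, with the covariate, without the 3 libraries and with voom, and 0 to 77 when each library was left out, 77 without pomegranate-high replicate 3. For pomegranate-high minus normal control it was 0 with a pseudocount of 0.1, without a filter, with a mean FPKM of at least 5, with TPM, with the 2 groups alone, with the covariate and without the 3 libraries, 1 with median-of-ratios, quantile or mitochondria-free scaling, without a trend and with voom, 6 with quality weights and 0 to 328 when each library was left out, 328 without pomegranate-high replicate 3. The causes were not tested.

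The titles of the model and normal control libraries share 2 numbers, and nothing in the labels says that these pair samples. With the title number as a replicate block, 0 genes and 0 members were called between model and normal control, and the member median was -0.34. With 3 libraries per group and 6 residual degrees of freedom, a p that misses the threshold does not show that levels were alike. Ppara had as few as 40 reads in a library and Acot1 at most 45, which limits what can be said of both.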

Other observations

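Within the lists of neighbouring pathways, a few genes not described with the members had groups that did not overlap, and none passed the adjusted threshold. Slc27a2, the very-long-chain acyl-CoA synthetase and fatty acid transporter of the liver, had 635, 738 and 547 FPKM in the pomegranate-high libraries, 532, 562 and 443 FPKM in the model libraries and 492, 399 and 482 FPKM in the normal control libraries. Its pomegranate-high libraries lay above all normal control libraries, with a log2 difference of 0.48 ± 0.23 (limma, adjusted p = 0.521). Hsd17b10, a mitochondrial hydroxyacyl-CoA dehydrogenase of branched chains, had 5.71, 2.75 and 6.202 FPKM in the pomegranate-high libraries, 2.98, 8.86 and 7.18 FPKM in the model libraries and 10.96, 12.4 and 7.83 FPKM in the normal control libraries. Here the pomegranate-high libraries lay below all normal control libraries, with a log2 difference of -0.99 ± 0.37 (limma, adjusted p = 0.433).

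Ucp2, a carrier of the inner mitochondrial membrane, had 67.4, 40.2 and 31.1 FPKM in the pomegranate-high libraries, 12.9, 31.5 and 22.5 FPKM in the model libraries and 16.7, 27.03 and 25.6 FPKM in the normal control libraries. Me1, the cytosolic malic enzyme that supplies NADPH for fatty acid synthesis, had 6.68, 4.99 and 10.8 FPKM in the pomegranate-high libraries, 7.04, 6.13 and 4.52 FPKM in the model libraries and 3.73, 4.62 and 3.48 FPKM in the normal control libraries. Both had pomegranate-high libraries above all normal control libraries, with log2 differences of 0.92 ± 0.37 for Ucp2 (limma, adjusted p = 0.45) and 0.73 ± 0.27 for Me1 (limma, adjusted p = 0.433). Plin5, a lipid droplet protein of oxidative tissues, had 6.78, 3.37 and 5.11 FPKM in the pomegranate-high libraries, 1.59, 4.51 and 3.09 FPKM in the model libraries and 4.53, 5.002 and 6.92 FPKM in the normal control libraries, and its model libraries lay below all normal control libraries, with a log2 difference of -0.73 ± 0.32 (limma, adjusted p = 0.999).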
